A study of Homo sapiens with 2 samples.

Results

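The BAF chromatin remodelling genes examined here are 10 genes that encode subunits of the mammalian SWI/SNF complexes, out of 20037 protein-coding genes placed on the assembled chromosomes. They were chosen by name, with earlier results of these data known. Every called interval inside each gene or within 100 kb of either end was taken from both peak lists. Binding of EWS-FLI, the EWSR1-FLI1 fusion transcription factor of Ewing sarcoma, had been profiled by CUT&Tag, in which an antibody-bound transposase cuts and tags the DNA beside its target. The cells were TC32, an established Ewing sarcoma line, treated with siEWS-FLI in 1 library and with siNEG in 1 library. The labels name neither the antibody nor the time after treatment, and nothing used here measures how much of the fusion remained. They do not explain siNEG, which serves as the arm against which siEWS-FLI is read. With 1 library per treatment, no value below has a replicate check and none was tested between treatments; each interval quoted beside a read number covers counting error alone.

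SWI/SNF complexes use ATP to slide or evict nucleosomes and so open chromatin to transcription factors. SMARCA4 (BRG1) and SMARCA2 (BRM) are the alternative ATPases. SMARCB1, SMARCC1, SMARCC2, SMARCD1 and SMARCE1 are scaffold subunits. ARID1A and ARID1B are the alternative large subunits that define canonical BAF, and BRD9 is the bromodomain subunit of the non-canonical complex. In Ewing sarcoma, EWS-FLI is known to recruit BAF complexes to GGAA repeats, where distal enhancers are opened; the data here concern the reverse relation, signal at the BAF genes themselves.

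The signal at a site is given as its summit pileup, the raw reads stacked at the highest base of a called interval. It was worked out from the deposited fold and p-value and is not scaled between libraries. The siEWS-FLI library was the shallower one: it held 6370 intervals, against 16284 with siNEG, and its library-wide background was 0.239 reads per base, against 0.348. For an assumed mappable genome, the siEWS-FLI library had an estimated 0.562 of the siNEG reads. Only the reads of a 10000-base mitochondrial window were left out of both libraries. Any mitochondrial reads beyond it remain, so 0.562 is not a ratio of nuclear depth. Fewer cells, fewer reads per cell and less binding cannot be told apart by these values. Of 6 genes known as Ewing markers or EWS-FLI targets, 2 had a siNEG interval within 1 kb of a start, STEAP1 with 19 reads and PRKCB with 6, and the other 4 had none there. That share, 33.3%, is near the 35.2% of all protein-coding genes. Sites further from these genes, such as distal enhancers, were not examined, so the share does not cover them. Of 6 marker genes of hepatocytes, blood and epithelium, 0 had one. Occupancy at these genes does not measure their expression.

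Most BAF genes carried a site at their own promoter with siNEG, and few did with siEWS-FLI. An own-promoter interval is one that reaches within 1 kb of an annotated start of the gene or, for SMARCC1 and SMARCC2, of either gene end. With siEWS-FLI, 2 of the 10 genes had such an interval, against 12.5% of all protein-coding genes by the same rule. With siNEG, 8 of the 10 had one, against 35.2% of all genes. Both genes called with siEWS-FLI, BRD9 and SMARCC2, were among the 8. Of the 8 genes, 2 had an own-promoter siNEG interval that overlapped a siEWS-FLI interval, and over all genes with a siNEG promoter interval this share was 31.1%. The exact binomial 95% interval of 8 in 10 is 44.4% to 97.5%, and that of 2 in 10 is 2.52% to 55.6%, so the share over all genes lies inside the siEWS-FLI interval and below the siNEG one. The 10 genes were chosen by name with earlier results of these data known, so these bounds describe counting error and are no test.

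**Figure D1:**
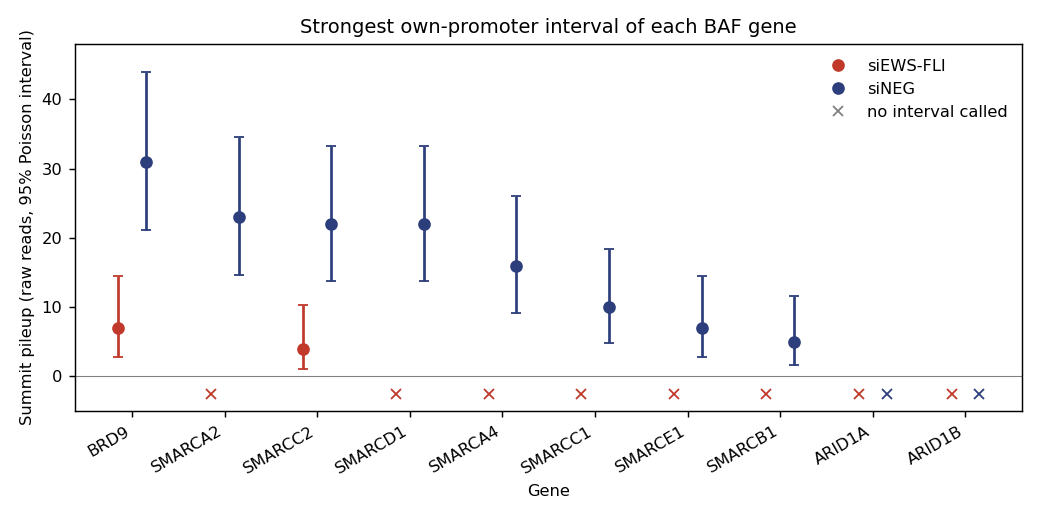
Summit pileup in raw reads of the strongest own-promoter interval of each BAF gene, with siEWS-FLI to the left and siNEG to the right of each pair; bars are exact Poisson 95% intervals and crosses below the axis mark genes with no interval called, which is not a measured 0. The siNEG pileups run from 31 at BRD9 to 5 at SMARCB1, and the siEWS-FLI list has only BRD9 with 7 and SMARCC2 with 4.

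The ATPase genes each had a siNEG site over the start and no siEWS-FLI site there. SMARCA2, the BRM gene, had no own-promoter call with siEWS-FLI and a pileup of 23 reads (95% interval 14.6 to 34.5) with siNEG. That siNEG interval lay on chromosome 9 (2014889 to 2015412), and its summit was 0.264 kb before the start. SMARCA4, the BRG1 gene, likewise had no call with siEWS-FLI, and 16 reads (9.15 to 26.0) with siNEG on chromosome 19 (10960522 to 10961138), 0.121 kb before the start. The counting intervals of the paralogues overlap, so their levels cannot be ranked. An uncalled site is not an empty one: with the local background seen in siNEG, as many as 7 reads could go uncalled in the siEWS-FLI list at SMARCA2 and 6 at SMARCA4. These limits equal 0.304 and 0.375 of the siNEG pileups. They are best read as upper limits, since the siEWS-FLI background was lower than the siNEG one at every window site called in both libraries. BRD9 and SMARCC2 were called with 7 and 4 siEWS-FLI reads, where the limit by the siNEG background is 8 at each.

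The scaffold subunit genes ranged more widely. At SMARCC2 (BAF170), siEWS-FLI gave 1 interval of 4 reads (1.09 to 10.2) and siNEG gave 2 intervals, of 22 reads (13.8 to 33.3) and 18 reads (10.7 to 28.4), on chromosome 12 beyond the gene end at 56189483. The siEWS-FLI interval (56190189 to 56190388) overlapped the weaker siNEG one (56190052 to 56190450), and siEWS-FLI over siNEG reads came to 0.222 (0.0547 to 0.675); the stronger one (56189584 to 56189909) had no siEWS-FLI call. SMARCC1 (BAF155), its paralogue, had no own-promoter call with siEWS-FLI and 10 reads (4.80 to 18.4) with siNEG, on chromosome 3 (47781805 to 47782114) across the gene end at 47781893.

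SMARCD1 (BAF60A), a subunit that contacts transcription factors, had no interval within 1 kb with siEWS-FLI and 22 reads (13.8 to 33.3) with siNEG on chromosome 12 (50085056 to 50085562). A siEWS-FLI interval of 5 reads (1.62 to 11.7), not called with siNEG, lay just outside the limit, with its nearest edge 1.06 kb before the start. SMARCE1 (BAF57), an HMG-box subunit, had no call with siEWS-FLI and 7 reads (2.81 to 14.4) with siNEG on chromosome 17 (40648113 to 40648312), where the summit was 0.396 kb before the start. SMARCB1 (SNF5), the subunit lost in rhabdoid tumours, had no call with siEWS-FLI and the weakest siNEG site of the 8 genes, 5 reads (1.62 to 11.7) on chromosome 22 (23787026 to 23787386), 0.235 kb inside the gene. At SMARCE1 and SMARCB1 as many as 3 siEWS-FLI reads could go uncalled, 0.429 and 0.6 of their siNEG pileups, so the missing calls there say little about loss.

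BRD9 had 7 own-promoter reads (2.81 to 14.4) with siEWS-FLI and 31 (21.1 to 44.0) with siNEG, the highest siNEG pileup of the 10 genes. With siEWS-FLI it cannot be ranked, since its interval overlaps that of SMARCC2. By the siNEG background, up to similar numbers could also go uncalled at other genes. The siEWS-FLI interval (892607 to 892806 on chromosome 5) lay wholly inside the siNEG one (892335 to 892919). The ratio was 0.226 (0.0839 to 0.523), siEWS-FLI over siNEG. The upper bound is below the estimated read ratio of 0.562, which may still hold mitochondrial reads and is not a ratio of nuclear depth. Over all 1236 promoter intervals of 20 to 49 siNEG reads, 51.4% were shared and the median ratio of the shared ones was 0.261 (quartiles 0.2 and 0.333), so the BRD9 ratio lies between those quartiles. The siNEG interval at BRD9 also covers the start of TRIP13, an AAA-ATPase of the spindle checkpoint that is transcribed the other way. The signal cannot be assigned to one gene of the pair.

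ARID1A and ARID1B, the large subunits of canonical BAF, were the 2 genes with no own-promoter interval in either library. The interval nearest to the ARID1A start had 15 siNEG reads (8.40 to 24.7) and ended 2.69 kb before it, inside LOC124900417, and it was not called with siEWS-FLI. ARID1A instead had sites in its body, described below. ARID1B, at 435 kb the longest of the 10 genes, had no call near either of its annotated starts.

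Ordered by siNEG pileup the genes run BRD9, SMARCA2, SMARCC2 and SMARCD1 (tied), SMARCA4, SMARCC1, SMARCE1 and SMARCB1, and no neighbours in that order differ beyond their counting intervals. BRD9 was separated from SMARCC1, SMARCE1 and SMARCB1, whose intervals end below the 21.1 at which that of BRD9 begins. The median over the 8 called genes was 19 reads, against 12 over the 7049 protein-coding genes with a siNEG promoter interval (quartiles 8 and 25). BRD9 stood above 79.8% of those genes, SMARCA2 above 72.1%, SMARCA4 above 59.98% and SMARCB1 above 3.29%. None of the BAF members came near the strongest promoters, which reached 1095 reads.

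**Figure D2:**
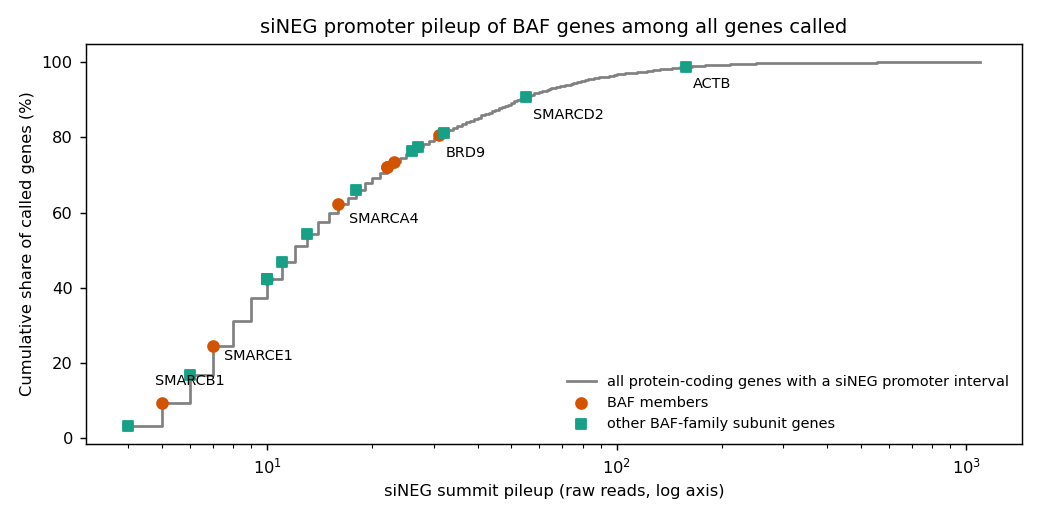
Cumulative share of the 7049 protein-coding genes with a siNEG promoter interval (vertical axis, percent) against siNEG summit pileup in raw reads (horizontal log axis), with the 8 called BAF members as circles and the 12 called other BAF-family genes as squares. The members lie between 5 reads at SMARCB1 and 31 at BRD9, while SMARCD2 with 55 and ACTB with 158 lie further right.

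EWS-FLI binds DNA through the ETS domain of FLI1, whose core letters are GGAA. RefSeq promoter letters (GRCh38.p14) were matched for 8 of the 10 genes, all except SMARCC1 and SMARCC2. The bases before the start are shown for the 4 strongest of the called genes that have them and for uncalled ARID1B; for BRD9 only the stretch up to the start of TRIP13 is shown. Capitals mark GGAA on either strand (GGAA or TTCC) and the longer ETS match CCGGAAG on either strand (CCGGAAG or CTTCCGG).
BRD9 (chr5:892802-892883, minus strand): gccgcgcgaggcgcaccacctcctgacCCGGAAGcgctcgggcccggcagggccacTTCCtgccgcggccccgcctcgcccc
SMARCA2 (chr9:2015097-2015346, plus strand): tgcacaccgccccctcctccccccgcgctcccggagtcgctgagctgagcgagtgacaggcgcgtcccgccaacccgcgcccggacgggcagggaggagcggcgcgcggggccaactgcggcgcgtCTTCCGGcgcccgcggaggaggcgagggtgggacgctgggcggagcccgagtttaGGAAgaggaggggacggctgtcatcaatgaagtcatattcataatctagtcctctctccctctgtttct
SMARCD1 (chr12:50085092-50085341, plus strand): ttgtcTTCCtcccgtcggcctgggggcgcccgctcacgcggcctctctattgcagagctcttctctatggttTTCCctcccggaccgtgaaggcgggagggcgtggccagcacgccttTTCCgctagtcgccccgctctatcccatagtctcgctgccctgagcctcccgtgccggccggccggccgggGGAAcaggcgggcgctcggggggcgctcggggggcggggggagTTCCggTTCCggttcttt
SMARCA4 (chr19:10960780-10961029, plus strand): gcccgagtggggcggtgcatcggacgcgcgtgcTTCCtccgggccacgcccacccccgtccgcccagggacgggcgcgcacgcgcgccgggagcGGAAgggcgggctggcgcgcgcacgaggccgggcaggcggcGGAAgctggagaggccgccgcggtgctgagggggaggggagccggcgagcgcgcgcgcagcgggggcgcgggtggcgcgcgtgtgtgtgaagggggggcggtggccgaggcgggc
ARID1B (chr6:156775776-156776025, plus strand): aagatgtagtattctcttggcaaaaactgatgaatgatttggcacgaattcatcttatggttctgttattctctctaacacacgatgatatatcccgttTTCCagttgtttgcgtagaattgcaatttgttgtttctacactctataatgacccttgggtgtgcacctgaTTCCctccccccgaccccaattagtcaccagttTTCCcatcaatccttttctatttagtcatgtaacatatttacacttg

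In the window of 250 bases before to 50 after the outermost start, BRD9 and SMARCA2 were the only 2 of the 8 genes with CCGGAAG, and they had the highest siNEG pileups of the 8, though not beyond the counting interval of SMARCD1. The match lay 55 bases before the start in BRD9 and 124 before it, on the opposite strand, in SMARCA2, inside the siNEG interval in both. Over 15842 protein-coding promoters, 14.2% held CCGGAAG, as did 28.3% of those with a siNEG promoter interval and 32.8% of those with a siEWS-FLI one. Read the other way, 74.98% of genes with CCGGAAG and 31.2% of genes without it had a siNEG promoter interval. The members without it still had siNEG intervals in 4 of 6 cases. At SMARCB1 and SMARCE1 the siNEG interval lay outside the letters searched.

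The short core was nearly everywhere and did not separate the called genes. GGAA was present in 95.2% of promoters. SMARCD1 had 8 matches, SMARCE1 5, SMARCA4, BRD9 and ARID1B 4 each, and SMARCA2 and SMARCB1 3 each. ARID1A was the only one of the 8 with 0. GGAAGGAA, a tandem pair of the GGAA unit whose repeats EWS-FLI is known for, was in 3.64% of all promoters and in 0 of the 8. Each CCGGAAG also counts as a GGAA, and a match of letters is not a bound site. Base composition moved with the calls over all genes as well: 46.1% of promoters of 60% GC or more had a siNEG interval, against 24.6% of the others. ARID1B had the lowest GC of the 8, 37.7%, but ARID1A, also uncalled, had 78%. Motif and GC values describe the outermost start only; further annotated starts, such as the other one of ARID1B, were not searched. The part of base composition in the calls was not tested.

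**Figure D3:**
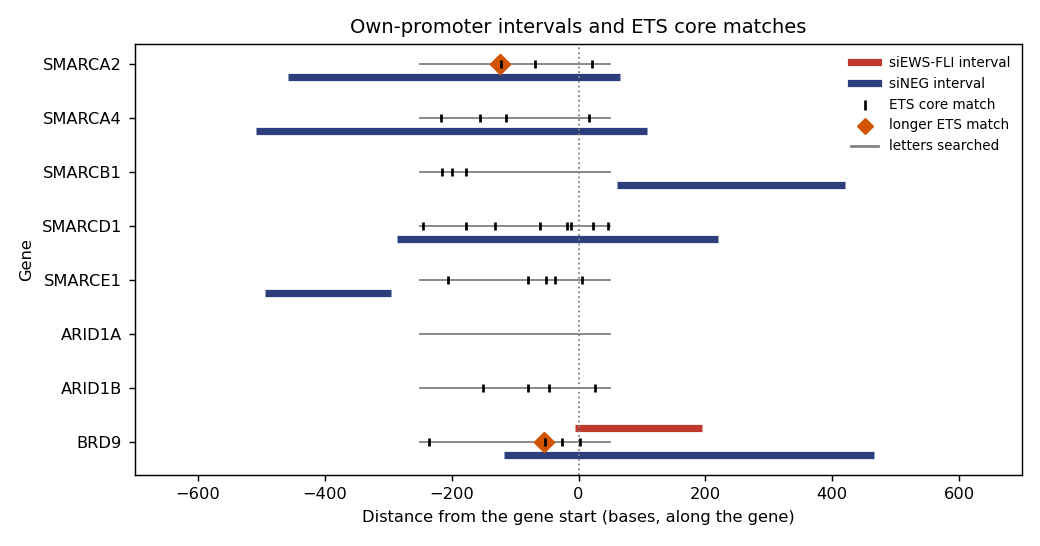
Position in bases from the outermost start, along the gene, of own-promoter intervals (siEWS-FLI above and siNEG below each line), ETS core matches (ticks) and longer ETS matches (diamonds) in the 8 BAF genes with promoter letters. The longer match falls inside the siNEG interval of SMARCA2 and BRD9, and ARID1A and ARID1B show no interval.

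Beyond their own promoters, the windows of the BAF genes mostly held sites of other genes. In all, 21 siEWS-FLI and 58 siNEG intervals lay inside the 10 genes or within 100 kb. All 10 genes had at least 1 siNEG interval in the window, against 82.9% of all genes, and 8 had a siEWS-FLI interval, against 59.3%. The median number per window was 2 with siEWS-FLI (0 to 4) and 5 with siNEG (2 to 12), against medians of 1 and 2 over all genes. The members' windows ran from 215 kb at SMARCD1 to 635 kb at ARID1B. Values over all genes were not matched to them for window length or gene density. SMARCB1 and SMARCE1 had no siEWS-FLI interval at all in their windows. The outermost interval taken was an 18-read siNEG site 99.7 kb from ARID1B, and the nearest one left out was a 12-read siNEG site 101 kb from SMARCD1.

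**Figure D4:**
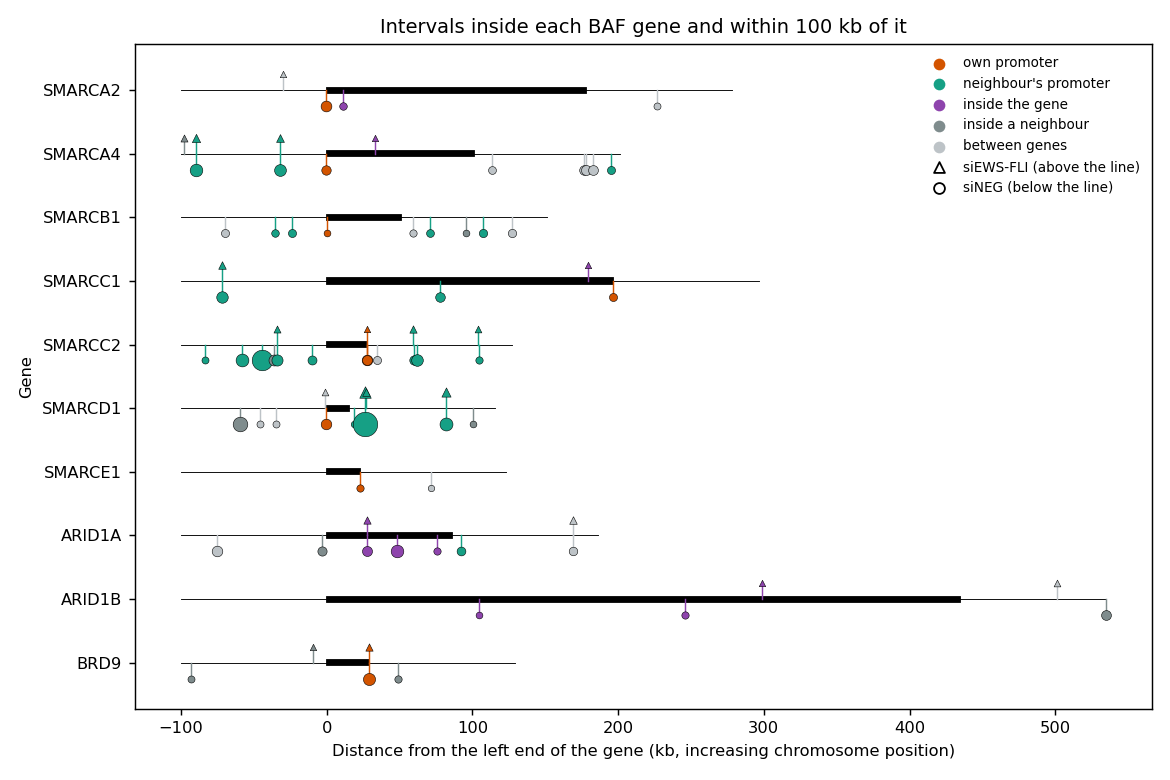
Each row is a BAF gene (thick bar) with 100 kb on either side, plotted in kb from the left end of the gene; triangles above the line are siEWS-FLI intervals and circles below it siNEG intervals, coloured by site, with marker area growing with the summit pileup. The largest markers are neighbours' promoters in the SMARCD1 and SMARCC2 windows, with 146 and 101 siNEG reads.

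Own promoters made up 2 of the 21 siEWS-FLI and 9 of the 58 siNEG intervals. Neighbours' promoters made up 9 and 21 of them, and the rest lay inside the gene (4 and 6), inside a neighbouring gene (2 and 8) or between genes (4 and 14). Of 17 siNEG intervals of 20 or more reads, 9 were at neighbours' promoters, 4 at own promoters and 4 at no promoter. Only protein-coding genes were used for these classes. A site between genes or at no promoter may therefore lie in or at the start of a noncoding gene. At any protein-coding start there were 11 of the 21 siEWS-FLI and 30 of the 58 siNEG intervals, against 33.2% and 38.6% of the whole lists. The windows were drawn around protein-coding genes and the whole lists were not, so these shares are not like for like.

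**Figure D5:**
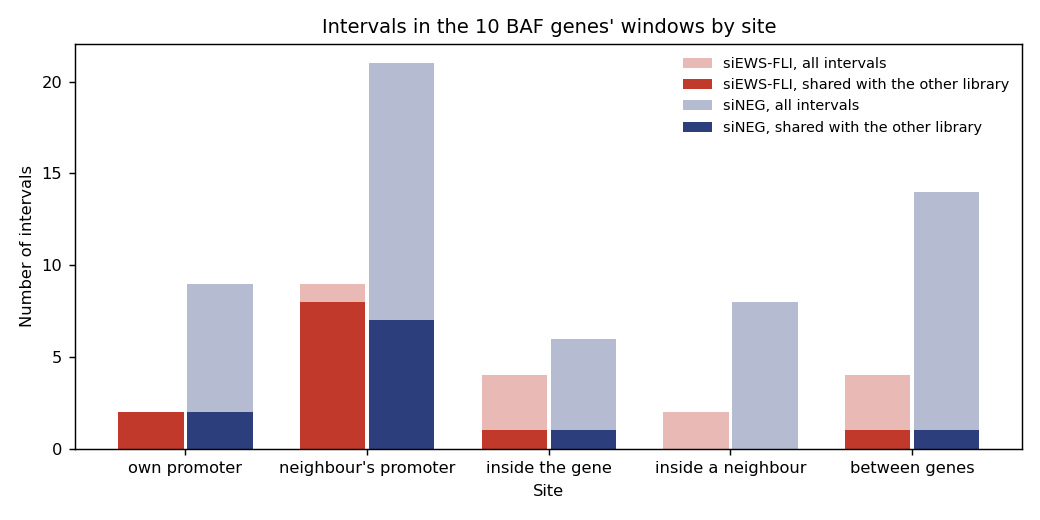
Number of intervals in the windows of the 10 BAF genes by site, with siEWS-FLI left and siNEG right in each pair; pale bars are all intervals and dark bars those that overlap an interval of the other library. Neighbours' promoters form the largest class, with 9 siEWS-FLI and 21 siNEG intervals.

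The strongest site in any window was at the start of COX14, a cytochrome c oxidase assembly factor, 11.2 kb beyond SMARCD1 on chromosome 12 (50111705 to 50112249). It had 27 reads (17.8 to 39.3) with siEWS-FLI, in the stronger of 2 overlapping intervals, and 146 (123 to 172) with siNEG. The ratio was 0.185 (0.118 to 0.280), siEWS-FLI over siNEG. Over all 623 promoter intervals of 50 or more siNEG reads, 86.8% were shared and the median ratio of those was 0.1375 (quartiles 0.103 and 0.182), so the COX14 ratio was just above the upper quartile. The site also lies at an end of GPD1. The SMARCD1 start itself had 22 siNEG reads. In the same window CERS5, a ceramide synthase gene, had 15 reads with siEWS-FLI and 36 with siNEG at its start, a ratio of 0.417 (0.212 to 0.780). A site inside RACGAP1, which encodes a cytokinesis GTPase-activating protein, had no siEWS-FLI call and 48 siNEG reads (35.4 to 63.6).

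The SMARCC2 window was the most crowded, with 14 other protein-coding genes and 12 siNEG intervals. ZC3H10, a zinc finger gene, had no siEWS-FLI call and 101 siNEG reads (82.3 to 123) at its start, where at most 14 siEWS-FLI reads could go uncalled, 0.139 of the siNEG pileup. A second ZC3H10 site, inside the gene, had 24 siNEG reads and no siEWS-FLI call. ESYT1, a lipid transfer protein gene, had 6 reads with siEWS-FLI and 25 with siNEG, a ratio of 0.240 (0.0805 to 0.599). These sites lie 34.3 to 44.2 kb from SMARCC2.

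Around SMARCA4, CARM1, which encodes an arginine methyltransferase that modifies SMARCC1, had 11 reads with siEWS-FLI and 34 with siNEG near its start, a ratio of 0.324 (0.148 to 0.654). The shared promoter of TIMM29 and YIPF2 had 9 and 29 reads, siEWS-FLI before siNEG, a ratio of 0.310 (0.129 to 0.673). Beyond the gene, 3 siNEG sites of 17 to 19 reads stood 75.7 to 81.2 kb away between genes, and none was called with siEWS-FLI. The strongest site in the SMARCC1 window was at the start of ELP6, an Elongator subunit gene, with 8 reads with siEWS-FLI and 27 with siNEG, a ratio of 0.296 (0.116 to 0.670).

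In the SMARCB1, SMARCE1, SMARCA2 and BRD9 windows no site away from the gene's own promoter had more than 11 siNEG reads. Around SMARCB1 the highest siNEG pileup was 11 reads, reached at the start of MIF, a cytokine gene, and at a site between genes 76.1 kb away. SMARCE1 had only a 4-read siNEG site besides its promoter, 48.6 kb away. SMARCA2 had 8 siNEG reads inside the gene, 4.86 kb from the nearest annotated start, and BRD9 had 7 inside TRIP13. None of these was called with siEWS-FLI.

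Inside the BAF genes themselves, ARID1A held the 2 strongest sites. On chromosome 1, one 48.3 kb into the gene (26744118 to 26744466) had no siEWS-FLI call and 34 siNEG reads (23.5 to 47.5). There, as many as 6 siEWS-FLI reads, 0.176 of that pileup, could go uncalled. Another, 27.7 kb into the gene (26723504 to 26723847), was the only body site of the 10 genes called in both libraries, with 7 reads (2.81 to 14.4) with siEWS-FLI and 19 (11.4 to 29.7) with siNEG, a ratio of 0.368 (0.131 to 0.915). One further body site had 7 siNEG reads. Between genes, 75.2 kb before ARID1A, a siNEG site had 22 reads and no siEWS-FLI call, and one 83.2 kb beyond the gene had 8 reads with siEWS-FLI and 12 with siNEG. At PIGV, a GPI-anchor gene next to ARID1A, siNEG gave 13 reads and siEWS-FLI no call.

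ARID1B, with 3 siNEG intervals in its 635 kb window, had 5 and 7 siNEG reads at its body sites and 18 inside TMEM242 at the edge of the window, none shared. Its siEWS-FLI intervals, of 4 and 5 reads, lay at other positions. Whether any body site is exonic or intronic was not analysed here.

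Over all the windows, 11 of the 58 siNEG intervals overlapped a siEWS-FLI interval (18.97%, exact binomial 95% interval 9.87 to 31.4), against 15.6% of all siNEG intervals. At starts, 9 of 30 were shared (30%), against 28% of all siNEG intervals at protein-coding starts, and away from starts 2 of 28 (7.14%), against 7.87%. Of the 17 intervals of 20 or more reads, 7 were shared (41.2%), against 52.5% of all such intervals. These shares are near the background, and sharing in the BAF windows was not distinguishable from that of the whole list at this number of sites.

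Pileups at the shared sites were lower with siEWS-FLI at every one of the 11. The ratio ran from 0.185 at COX14 to 0.667 at the ARID1A site between genes, with a median of 0.310, siEWS-FLI over siNEG. The estimated read ratio of 0.562 may still hold mitochondrial reads, so a value below it does not show a loss beyond nuclear depth. The site ratio was under 0.562 at 10 of the 11, and the upper bound was under 0.562 only at COX14 and BRD9. Such ratios are usual in these libraries: over all shared promoter intervals the median was 0.474 at 10 to 19 siNEG reads, 0.261 at 20 to 49 and 0.1375 at 50 or more. A site enters this set only if siEWS-FLI reached the calling threshold there, and the lowest pileup called in either list was 4.

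The siEWS-FLI intervals with no siNEG partner were all weak. There were 9, of 4 to 6 reads each, and all 9 were exactly 200 bases wide, the narrowest interval in the list. They included sites inside SMARCA4, SMARCC1 and ARID1B, with 4 reads each. Such widths and pileups are usual in the siEWS-FLI list, where 4547 of 6370 intervals were exactly 200 bases wide and the median pileup was 5. Of the 21 siEWS-FLI window intervals 12 overlapped a siNEG interval (57.1%, 34.0 to 78.2), against 41.1% of the whole siEWS-FLI list.

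The other subunit genes of the BAF, PBAF and non-canonical complexes gave a like picture. Of 19 such genes, 3 had an own-promoter interval with siEWS-FLI and 12 with siNEG (15.8% and 63.2%, against 12.5% and 35.2% of all genes), and 3 of the 12 were shared. Their median siNEG pileup was 15.5 reads over the 12. SMARCD2, a paralogue of SMARCD1, kept the clearest site, with 16 reads (9.15 to 26.0) with siEWS-FLI and 55 (41.4 to 71.6) with siNEG, a ratio of 0.291 (0.156 to 0.515). ACTL6A, the actin-related subunit BAF53A, had 4 and 27 reads, siEWS-FLI before siNEG, at a ratio of 0.148 (0.0377 to 0.425). BICRA (GLTSCR1), a subunit of the non-canonical complex like BRD9, had 4 reads with siEWS-FLI and 13 with siNEG, a ratio of 0.308 (0.0731 to 0.996).

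ACTB, whose beta-actin is both cytoskeletal and a BAF subunit, had the strongest siNEG promoter site of all the BAF-family genes examined and no siEWS-FLI call. It had 158 siNEG reads (134 to 185), and at most 19 siEWS-FLI reads, 0.120 of these, could go uncalled there. BICRAL, the paralogue of BICRA, had 32 siNEG reads and BCL7B, a small accessory subunit, had 26, neither called with siEWS-FLI. The BICRAL interval also lies within 1 kb of a start of TBCC, and that of PBRM1 within 1 kb of a start of GNL3. The SS18L1 interval likewise lies within 1 kb of a start of PSMA7. None of these intervals can be assigned to one gene. The other called genes had 4 to 18 siNEG reads and no siEWS-FLI call, among them ARID2 and PBRM1, which define PBAF, with 18 and 10.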

How the data were processed

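CUT&Tag was run in TC32 cells, 1 library given siEWS-FLI and 1 given siNEG, with 14 and then 20 PCR cycles, per the labels. Per the submitters' processing notes, which give no roles, the build was hg38 and the tools were MACS2 2.2.9.1, Bowtie2 2.4.5 and Trim Galore 0.6.6. Whether a control library was used, how duplicates were handled and which fragment settings applied is not given in the sources used here. The deposited lists, 1 per library, hold intervals with fold enrichment (a linear ratio over local background), −log10 p-value, −log10 q-value, summit position and a display score. The deposited score was not used, and the authors' fold and −log10 values are each peak's own.

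Lines sharing an interval were merged, keeping the highest −log10 q. Pileups were solved from fold, taken as the ratio of both values after adding 1 to each of pileup and background, and from the Poisson tail p, with a tolerance of 0.001 in log10 p, growing in proportion above 10. This solved 99.98% of siEWS-FLI and 99.98% of siNEG lines and every interval quoted; the solver was tested on simulated data. Reads per library assume 2700000000 mappable bases and 200-base extension. Reads that could go uncalled were found with the smallest deposited siEWS-FLI −log10 p, 4.49, and the siNEG local background. They are too high where the siEWS-FLI background was lower. Intervals sharing at least 1 base count as shared. Read intervals are exact Poisson and shares exact Clopper-Pearson, at 95%; PCR copies are not independent molecules, so both cover counting error only.

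Genes are the protein-coding ones of RefSeq GRCh38.p14, and noncoding genes were left out. Starts were in the promoter table for 15842 of 20037 genes; either gene end served for the others, so for those, neighbours included, an own-promoter site may lie at the far end. Members and lists were chosen with earlier results of these data known. Named window sites are the strongest at a neighbour's promoter and at no promoter per gene, and shared sites of 20 or more siNEG reads; further sites in the SMARCA4, SMARCC1, SMARCD1, ARID1A and ARID1B windows were named after their values were seen. Of the other BAF-family genes the 5 highest with siNEG and those called with siEWS-FLI are named, and ARID2 and PBRM1 were added after seeing values. Python 3.11.15, scipy 1.17.1 and pandas 2.3.3 were used.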

Additional observations from a re-analysis of the deposited data

How the results depend on the processing

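Of 73 recomputed values under 13 settings, 54 stayed within 1.5 times of the value given, or within its counting interval for the median pileup, and 19 did not. BAF genes with a siNEG promoter interval numbered 6 to 8 and their median siNEG pileup was 19 to 22 reads under all 8 alternatives run for each. BAF genes with a siEWS-FLI promoter interval numbered 1 in place of 2 at −log10 q of at least 2, at −log10 q of at least 5 and with promoters of 500 bases, and 0 without the intervals of exactly 200 bases; own-promoter siNEG intervals shared numbered 1, 1, 1 and 0 under the same settings, 1 at a reciprocal overlap of 50% and 4 when intervals within 1 kb counted as shared. Window intervals numbered 7 in place of 21 with siEWS-FLI at −log10 q of at least 5 and 6 without the intervals of 200 bases, and 34 in place of 58 with siNEG when that list was cut to the length of the siEWS-FLI list. Shared window intervals numbered 7 in place of 11 at −log10 q of at least 5, 6 without intervals of 200 bases, 5 at a reciprocal overlap of 50% and 7 with windows of 50 kb. Other BAF-family genes with a siEWS-FLI promoter interval numbered 1 in place of 3 at −log10 q of at least 2 and of at least 5. By construction these settings keep fewer intervals, narrow a window, or match more strictly or more loosely. No paired analysis was possible because each treatment has 1 library and no test was made. The weakest called intervals have 4 reads in both lists, so at siNEG pileups of 5 to 7 a missing call carries little weight.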

Other observations

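Genes of other remodellers, of the ISWI, CHD and INO80 families and their partners, had own-promoter intervals in 6 of 16 cases with siEWS-FLI (37.5%, exact binomial 95% interval 15.2 to 64.6) and in 12 of 16 with siNEG (75%, 47.6 to 92.7). Of the 12, 4 had a siNEG interval there that overlapped a siEWS-FLI one. Over all protein-coding genes the shares called were 12.5% with siEWS-FLI and 35.2% with siNEG. The BAF members had own-promoter intervals in 2 and 8 of 10, and the binomial intervals of the BAF and other-remodeller shares overlap. The median siNEG pileup of the called genes was 19.5 reads for the other remodellers and 19 for the BAF members.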
